A study of Mus musculus with 10 samples.

Results

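The genes described here are 8 components of the complement cascade other than the C1q chains: C1ra, C1s1, C2, C3, C4b, Cfb, Cfp and Serping1. They were taken by symbol from the 52636 rows of a mouse gene count table, and all 8 were found and were among the 17286 genes with enough counts to be tested. The table holds polyadenylated RNA from 10 melanoma tumours of mice. All 10 carried BrafCA, a Braf allele that gives oncogenic BRAF once Cre has acted, together with Cdkn2af/f, floxed copies of a tumour suppressor locus. The 6 tumours of the group named Arf6Q67L also carried that allele, a constitutively active form of the small GTPase ARF6, and the other 4 tumours without it are the controls. The Cre driver, the cells that express Arf6Q67L, and the age and sex of the mice are not in the labels, and nothing there states that each tumour came from a separate animal, so p-values measure the spread between these tumours.

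Complement is a cascade of plasma and tissue proteins in which one protease cuts the next. In the classical pathway C1q recruits the proteases C1r and C1s, which cut C4 and C2. The fragments form a convertase that splits C3, the step at which all pathways meet, while factor B and properdin build and hold the convertase of the alternative pathway. The liver makes most of the complement in plasma, and macrophages, fibroblasts, endothelium and tumour cells also transcribe these genes, several of which respond to interferon-gamma and to inflammatory cytokines.

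Library totals lay between 28635414 and 40869091 counts, and 3 counts, the limit that a count of 0 allows, come to between 0.0734 and 0.105 CPM, counting error only. CPM, the level used throughout, is a gene's count relative to the library total in the usual unit, after scaling between libraries by TMM factors. Library numbers do not interleave between the genotypes, so their order and the genotype cannot be told apart. Of 8 markers of melanocytes, 3 had enough counts to be tested. The transcription factor gene Mitf stood at 11.07 to 26.1 CPM in the Arf6Q67L tumours and 12.02 to 20.2 CPM in controls. In the same order, Gpnmb ran from 1.33 to 69.2 and 5.84 to 49.3 CPM, and Pmel from 0.524 to 0.940 and 0.659 to 0.939 CPM. Sox10 reached 2.83 and 1.27 CPM. Tyrp1 and Mlana did not exceed 0.0521 and 0.101 CPM in any tumour. The pigment enzyme genes Tyr and Dct had no count in any of the 10 libraries. In bulk tissue, fewer cells of a type and less RNA per cell cannot be told apart.

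All 8 genes had a negative log2 fold change, that is, a lower fitted level in Arf6Q67L tumours than in controls, with a median of -1.14. A negative value was found for 50.3% of all genes tested, whose median was -0.0018. None of the 8 passed the threshold of 0.05 in edgeR's quasi-likelihood test with Benjamini-Hochberg adjustment over all genes tested, and neither did any other gene (0.0% called lower and 0.0% called higher). At an unadjusted p under 0.05, 3 of the 8 genes (C2, Cfb and Serping1) were on the lower side, against 7.05% of all genes, and 0 were on the higher side, against 4.65%. DESeq2 gave 4 of the 8 an unadjusted p under 0.05 on the lower side (C1ra besides these 3), against 7.93% of all genes, but called 0 after adjustment, against 1.39% called lower and 0.931% called higher. A log2 fold change below -1 was found for 5 of the 8 and for 5.38% of all genes. The groups overlapped for each of the 8 genes; 1.28% of all genes lay lower and 1.15% higher in every Arf6Q67L tumour than in any control. These sizes depended on single tumours: the median over the 8 genes was -0.65 without control 4 and -1.68 without Arf6Q67L tumour 4.

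**Figure D1:**
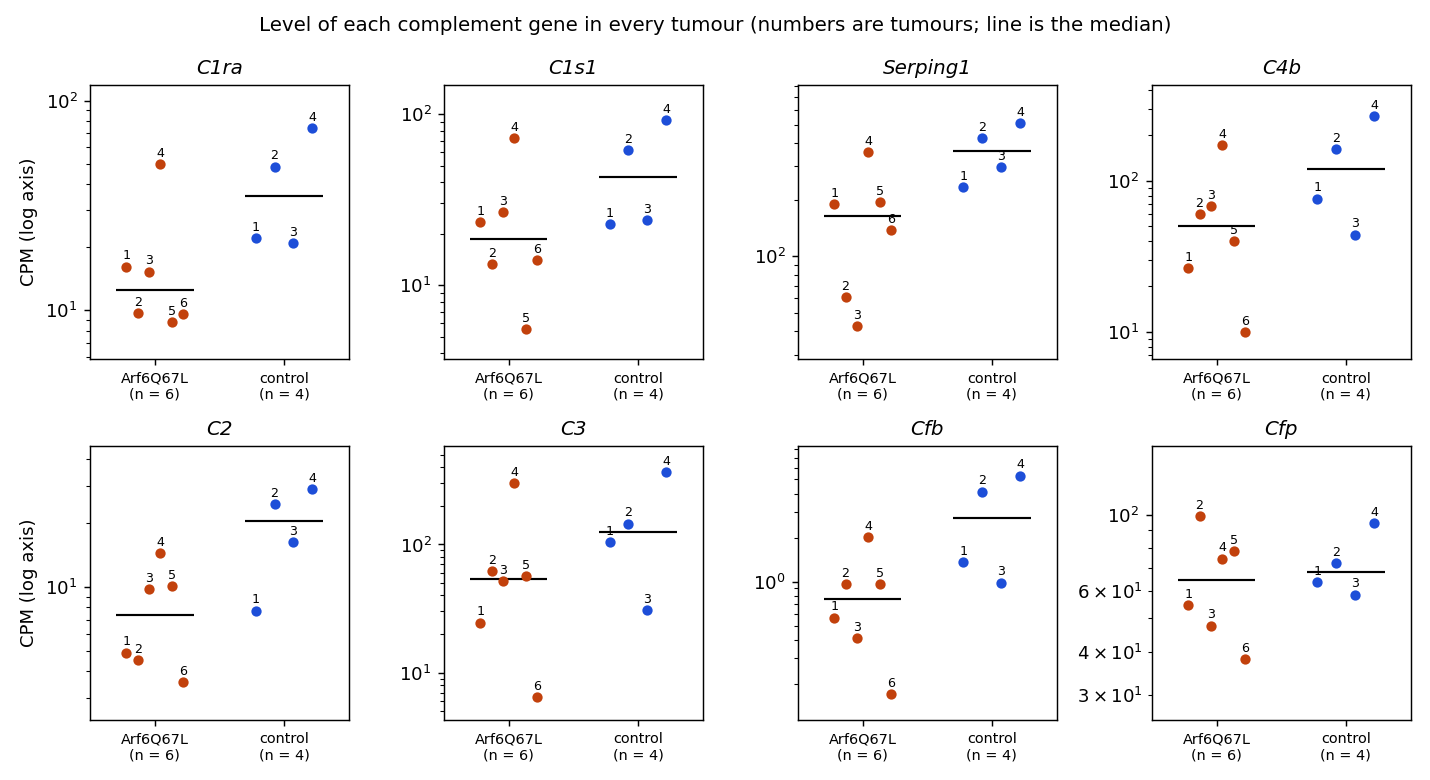
Level of the 8 complement genes in each of the 10 tumours, as CPM on a log axis; numbers are tumours within a group and lines are group medians. Control 4 is the highest tumour for 7 of the genes, and Arf6Q67L tumour 4 lies inside the range of the controls for all 8.

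C1ra and C1s1 encode the paired proteases of the C1 complex, C1r and C1s, and sit side by side on chromosome 6 (C1ra at chr6:124512405-124523443 on the plus strand, C1s1 at chr6:124530345-124542359 on the minus strand, GRCm38), 6901 bases apart. C1ra ran from 8.80 to 49.98 CPM in the 6 Arf6Q67L tumours, with a median of 12.5 CPM. In the controls it stood at 22.1, 48.4, 20.97 and 74.2 CPM in tumours 1 to 4. Arf6Q67L tumours 1, 2, 3, 5 and 6 were below every control, while tumour 4 exceeded 3 of the 4 controls. Mean levels were 18.3 ± 15.9 (SD, n = 6) and 41.4 ± 25.3 CPM (SD, n = 4), and the log2 fold change was -1.18 (SE 0.56, edgeR adjusted p = 0.452), or -0.73 without control 4 and -1.80 without Arf6Q67L tumour 4. C1s1 ran from 5.54 to 72.5 CPM with a median of 18.7 CPM in Arf6Q67L tumours. Its controls stood at 22.8, 61.3, 23.9 and 92.4 CPM, so that only 3 of 6 Arf6Q67L tumours were below every control. The log2 fold change of C1s1 was -0.95 (SE 0.66, edgeR adjusted p = 0.613), a difference smaller than the spread between tumours, and it was -0.46 without control 4 and -1.6 without Arf6Q67L tumour 4.

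Both proteases have a close paralogue further along the same chromosome, C1rb and C1s2, and reads that match both copies can be split or lost. Of all runs of 50 bases in the annotated transcripts of C1ra, 48.0% also occur in C1rb, and for C1s1 and C1s2 the share is 21.8%. The middle 60 bases of each coding sequence are shown with the best ungapped match in the paralogue, because they show what a read has to tell the copies apart; capitals mark bases that differ (GENCODE transcripts, GRCm38). The C1ra bases lie within chr6:124517810-124519406 and cross an intron, and those of C1s1 are chr6:124533909-124533968.
C1ra: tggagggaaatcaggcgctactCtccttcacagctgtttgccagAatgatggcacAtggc
C1rb: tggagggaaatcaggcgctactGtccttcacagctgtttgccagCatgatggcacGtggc
C1s1: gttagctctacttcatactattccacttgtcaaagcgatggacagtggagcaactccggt
C1s2: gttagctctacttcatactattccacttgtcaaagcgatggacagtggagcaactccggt
The first pair differs at 3 of the 60 bases and the second at 0. C1rb was counted at 0.957 ± 0.621 (SD, n = 6) and 2.78 ± 2.04 CPM (SD, n = 4) in Arf6Q67L and control tumours, and the log2 fold change was -1.54 (SE 0.54, edgeR adjusted p = 0.345). C1s2 stood at 2.94 ± 2.20 (SD, n = 6) and 6.03 ± 4.32 CPM (SD, n = 4), and the log2 fold change was -1.04 (SE 0.58, edgeR adjusted p = 0.52). Each paralogue was far below its partner in CPM, and with the counts pooled the log2 fold changes were -1.20 for C1ra and -0.96 for C1s1.

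Serping1 encodes C1 inhibitor, the serpin that inactivates C1r and C1s (chr2:84765387-84775444, minus strand), and it had the highest mean level of the 8 genes in both groups, although Cfp and C3 exceeded it in Arf6Q67L tumours 2 and 3, and C4b in tumour 3. It ran from 42.8 to 358.2 CPM in Arf6Q67L tumours with a median of 163.6 CPM, and stood at 232.1, 422.7, 297.3 and 506.9 CPM in controls 1 to 4. Arf6Q67L tumours 2 and 3 were the lowest at 60.8 and 42.8 CPM, and 5 of 6 were below every control. The log2 fold change was -1.16 (SE 0.52, unadjusted p = 0.0498, edgeR adjusted p = 0.427). Its range within the controls was 2.18-fold, narrower than that of any other of the 8 genes except Cfp.

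C4b and C2 encode the substrates that C1s cuts and whose fragments form the classical C3 convertase. C4b (chr17:34728380-34743882, minus strand) ran from 9.92 to 173.4 CPM in Arf6Q67L tumours with a median of 50.2 CPM. Its controls stood at 76.2, 162.1, 44.05 and 269.7 CPM. Arf6Q67L tumour 6 was lowest and tumour 4 highest of its group, and 3 of 6 were below every control. For C4b the log2 fold change was -1.13 (SE 0.71, edgeR adjusted p = 0.573), and -0.57 without control 4 and -1.75 without Arf6Q67L tumour 4. C2 (chr17:34862604-34898265, minus strand) ran from 3.55 to 14.4 CPM with a median of 7.33 CPM in Arf6Q67L tumours. The controls stood at 7.73, 24.5, 16.3 and 28.9 CPM, so control 1 lay among the Arf6Q67L tumours. C2 had the lowest unadjusted p of the 8 genes (0.0175), at a log2 fold change of -1.30 (SE 0.46, edgeR adjusted p = 0.347, DESeq2 adjusted p = 0.122).

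C4b also has a paralogue nearby, C4a, annotated as a processed transcript in the release used here, and 34.6% of the 50-base runs of C4b occur in it. The middle of the C4b coding sequence, within chr17:34735557-34735744, is shown in the same way for this pair and crosses an intron.
C4b: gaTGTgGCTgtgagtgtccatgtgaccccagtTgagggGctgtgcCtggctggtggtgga
C4a: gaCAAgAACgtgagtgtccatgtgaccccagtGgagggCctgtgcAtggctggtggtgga
They differ at 9 of 60 bases. In Arf6Q67L and control tumours C4a was counted at 2.28 ± 0.552 (SD, n = 6) and 2.73 ± 0.691 CPM (SD, n = 4), and the log2 fold change was -0.26 (SE 0.25, edgeR adjusted p = 0.728). Its values spanned 1.597 to 3.18 CPM over the Arf6Q67L tumours, where C4b differed 17.5-fold. Pooling both genes gave -1.11 in place of -1.13.

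C3, the protein that every complement pathway cuts (chr17:57203970-57228136, minus strand), varied most. It ran from 6.43 to 300.9 CPM in Arf6Q67L tumours with a median of 54.2 CPM, and stood at 104.7, 145.2, 30.9 and 368.4 CPM in controls 1 to 4. The highest Arf6Q67L tumour was 46.8 times the lowest, and the highest control 11.9 times the lowest, so the spread within each group exceeded the difference between them. It had a log2 fold change of -0.96 (SE 0.92, edgeR adjusted p = 0.73), which was -0.15 without control 4 and -2.01 without Arf6Q67L tumour 4.

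Promoter windows from RefSeq on GRCm38.p6, reaching from 250 bases before to 50 after a gene's start, were held for 4 of the 8 genes (C1ra, C1s1 with a pair of starts, C3 and Cfp). They were searched on both strands for motifs of factors known to act on complement genes: the gamma-activated sequence TTCNNNGAA bound by STAT factors, the interferon-stimulated response element (a pair of GAAA runs with 2 bases between), a kappa B form (GGG and TTTCC with 2 bases between) and the C/EBP half-site pair TTGCNNAA. Their shares among all 32851 windows were 8.3%, 3.44%, 1.63% and 10.8%. C3 and C1s1 are shown because their windows hold a match upstream of the start and because C3 spanned the widest range of levels; capitals mark the C/EBP match, which begins at position -45 from the start of C3 and, on the opposite strand, at position -242 from the more distal start of C1s1.
C3, chr17:57228137-57228386, minus strand: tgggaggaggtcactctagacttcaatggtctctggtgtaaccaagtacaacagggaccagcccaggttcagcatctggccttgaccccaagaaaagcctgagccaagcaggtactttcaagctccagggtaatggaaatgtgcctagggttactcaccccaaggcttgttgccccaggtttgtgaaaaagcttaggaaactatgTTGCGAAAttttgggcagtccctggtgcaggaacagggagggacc
C1s1, chr6:124542360-124542609, minus strand: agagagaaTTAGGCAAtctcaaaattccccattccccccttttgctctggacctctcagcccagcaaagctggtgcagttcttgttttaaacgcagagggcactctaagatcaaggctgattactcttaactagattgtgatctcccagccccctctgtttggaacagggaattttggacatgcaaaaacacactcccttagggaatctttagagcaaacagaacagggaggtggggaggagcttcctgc
In C1ra a gamma-activated sequence begins 33 bases after the RefSeq start. The 250 bases before that start are chr6:124512371-124512620, so it lies downstream of the gene's first annotated base, chr6:124512405. The site is shown with its flanks, and a C/EBP match on the opposite strand precedes it.
C1ra, chr6:124512643-124512670, plus strand: aaatgcttcaTTCCCTGAAacattcctc
None of the 4 motifs was found in the window of Cfp. A match describes letters in a window and is not evidence of binding.

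Cfb encodes factor B, the protease of the alternative pathway (chr17:34856374-34862518, minus strand), and lies 85 bases from C2. It ran from 0.172 to 2.01 CPM in Arf6Q67L tumours with a median of 0.766 CPM. Controls 1 to 4 stood at 1.37, 4.12, 0.987 and 5.30 CPM. In 5 of 6 Arf6Q67L tumours Cfb was below every control, although Arf6Q67L tumours 2 and 5 were close to control 3. The log2 fold change of -1.79 (SE 0.66, unadjusted p = 0.0209, edgeR adjusted p = 0.361) was the most negative of the 8 genes and rested on few reads, from 6 to 158 counts per library. It was -1.33 without control 4.

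Exons of C2 and Cfb are shared with another annotated gene. The annotation has a joint gene model, Gm20547 (chr17:34856412-34882042), on the same strand, and all of its 3902 exonic bases lie in exons of C2 or Cfb. Those bases make up 79.5% of the exonic bases of Cfb and 42.8% of those of C2. Gm20547 has a row in the table and 0 counts over all 10 libraries. No source used here says how reads in shared exons were assigned. Over all exonic bases, the level of Cfb in controls was 1.04 ± 0.744 CPM per kilobase (SD, n = 4) and that of C2 4.997 ± 2.41 CPM per kilobase (SD, n = 4). If only unshared bases were counted, the levels would be 5.08 ± 3.63 and 8.73 ± 4.22 CPM per kilobase (SD, n = 4 for both), so the distance between the genes depends on that rule. The length used cancels in the difference between genotypes within each gene. Whether that difference would be the same with reads assigned by another rule was not tested.

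Cfp encodes properdin, which stabilises the alternative convertase and is made mainly by myeloid cells (chrX:20925454-20931555, minus strand). It ran from 38.1 to 99.0 CPM in Arf6Q67L tumours with a median of 64.6 CPM, and stood at 63.6, 72.5, 58.6 and 94.5 CPM in the controls. The highest value of all 10 tumours was in Arf6Q67L tumour 2. Cfp had a log2 fold change of -0.14 (SE 0.26, edgeR adjusted p = 0.866), which took the other sign (0.02) without control 4. Its range was the narrowest of the 8 genes, 2.60-fold from the lowest to the highest tumour.

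Set per kilobase of exon, mean levels followed the same order in both genotypes: Serping1, Cfp, C3, C4b, C1s1, C1ra, C2 and Cfb. In controls the first of these stood at 156.9 ± 53.1 CPM per kilobase (SD, n = 4), and Cfp at 41.6 ± 9.16 CPM per kilobase (SD, n = 4), more than an SD apart on either side. C3 (31.6 ± 28.3), C4b (24.2 ± 17.7), C1s1 (16.01 ± 10.7) and C1ra (13.9 ± 8.48 CPM per kilobase, SD, n = 4 for each) could not be ordered within their spread. In Arf6Q67L tumours Serping1 at 70.4 ± 49.1 and Cfp at 37.7 ± 13.03 CPM per kilobase (SD, n = 6 for both) overlapped as well.

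Some of the tumours ranked alike across genes. Control 4 was among the 3 highest tumours for 8 of the 8 genes, control 2 for 7 and Arf6Q67L tumour 4 for 6, while Arf6Q67L tumour 6 was among the 3 lowest for 8. Others did not: Arf6Q67L tumour 2 was rank 1 of 10 for Cfp but rank 9 for C1s1, C2 and Serping1. Arf6Q67L tumour 3 was rank 4 for C1s1 and rank 10 for Serping1. Summed over the 8 genes, the level was 1440.3 CPM in control 4, 1045.9 CPM in Arf6Q67L tumour 4 and 940.8 CPM in control 2. The other controls, 1 and 3, stood at 530.5 and 492.95 CPM, and the other 5 Arf6Q67L tumours lay between 219.4 and 394.2 CPM. Serping1 made up between 16.3% and 62.8% of these sums, and C3 between 2.93% and 28.8%.

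Among neighbours in the genome, C1ra and C1s1 followed each other most closely. Over the 10 tumours Pearson's r of log2 CPM was 0.949 and Spearman's rho 0.879 (permutation tests, two-sided, p = 5e-05 and 0.00165, adjusted over 3 pairs 0.00015 and 0.00397). Within the 6 Arf6Q67L tumours r was 0.923 (exact permutation p = 0.00556, adjusted 0.0167), and it was 0.898 without control 4 and Arf6Q67L tumour 4, those farthest from the median of C1ra (exact permutation p = 0.00211). For C4b and Cfb, 112491 bases apart, r was 0.908 and rho 0.855 (permutation p = 0.00039 and 0.00265, adjusted 0.000585 and 0.00397); r was 0.853 within Arf6Q67L tumours (exact permutation p = 0.0375, adjusted 0.0562) and 0.764 without control 4 and Arf6Q67L tumour 6 (exact permutation p = 0.0263). For C2 and Cfb r was 0.835 and rho 0.782 (permutation p = 0.00251 and 0.0101, adjusted 0.00251 and 0.0101). This relation no longer passed without both control 4 and Arf6Q67L tumour 6, the tumours farthest from the median of C2, where r was 0.654 (exact permutation p = 0.0755), and it was 0.677 within Arf6Q67L tumours (exact permutation p = 0.142). The 4 controls were too few for a value of their own. Permutations over the 10 tumours crossed the genotypes, so a difference between genotypes that both genes share enters r and p. For deviations from the group means, r was 0.944 for C1ra and C1s1, 0.892 for C4b and Cfb, and 0.711 for C2 and Cfb.

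The closest of all 28 pairs was C3 and C4b, chosen after its value was seen, which lie far apart on chromosome 17. Here r was 0.975 and rho 0.939 (permutation p = 3e-05 and 0.0003, adjusted over 28 pairs 0.0007 and 0.0084), with r of 0.978 within Arf6Q67L tumours (exact permutation p = 0.00556) and 0.929 without control 4 and Arf6Q67L tumour 6 (exact permutation p = 0.00117). For deviations from the group means, r of C3 and C4b was 0.974. Over the 28 pairs r of log2 CPM had a median of 0.74 and a minimum of 0.212, for C1s1 and Cfp. No median over pairs of other genes is given here for reference.

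**Figure D2:**
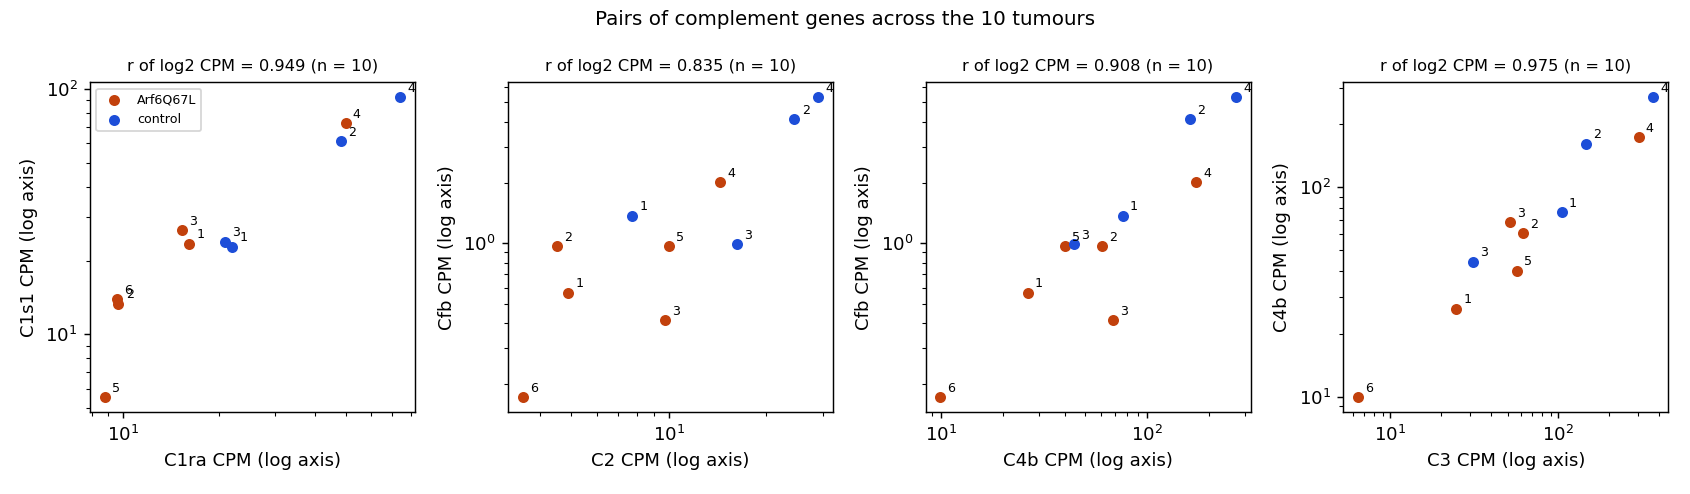
Levels of pairs of complement genes in the 10 tumours, both axes in CPM on log scales; each point is a tumour, numbered within its group, and colours are the genotypes. In all 4 panels control 4 is at the upper end, and in the panels other than that of C1ra and C1s1 Arf6Q67L tumour 6 is at the lower end.

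Genes most like each of the 8 were found by Pearson's r of deviations from the group means over the 10 tumours, among 14193 genes, as a description without a test. For C1ra these were Stard8 (r = 0.96), C1s2 (0.96) and Ifi205 (0.93). For C1s1 they were its own paralogue C1s2 (0.98), Stard8 (0.96) and Cldn6 (0.94). Of the 50-base runs of C1s1, 21.8% also occur in C1s2, and the part of shared reads in their r was not tested. C3 was most like Il15ra, which encodes a chain of the interleukin-15 receptor (0.97), and the myeloid receptor genes Cd300lf and Lilrb4a (0.94 for both). C4b was nearest to Chdh (0.98), Cept1 (0.95) and Cacna1d (0.94), and C2 to N6amt1 (0.95), Nlrc5, the activator of MHC class I genes (0.93), and Guca1a (0.93). Cfb was nearest to Nuak2, Slamf6 and Crocc2 (0.94 for each) and Serping1 to Rasgrp2 (0.94), Plscr2 (0.93) and Dtymk (0.92). The genes nearest to Cfp were Stat2 (0.96), Xaf1 (0.94) and Irf9 (0.93), all of them known to be induced by interferon. With any 1 tumour left out, the lowest of these r was 0.84, for C1ra and Ifi205 without Arf6Q67L tumour 4. The genes were chosen for high r over these same tumours, so this is no independent check.

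The C1q chains, which complete the C1 complex, had negative values as well. Their sum ran from 470.6 to 1136.5 CPM in Arf6Q67L tumours, and stood at 691.3, 1502.7, 800.4 and 2567.0 CPM in controls 1 to 4, so the groups overlapped. The log2 fold changes of C1qa, C1qb and C1qc were -0.82 (SE 0.35), -1.10 (SE 0.42) and -0.95 (SE 0.39), with edgeR adjusted p-values of 0.408, 0.374 and 0.397. Without control 4 they were -0.40, -0.58 and -0.42.

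Of 9 complement receptor genes, 9 were tested, 0 passed in edgeR or DESeq2, and the median log2 fold change was -0.33. Itgax (-0.91, SE 0.30) and Itgb2 (-1.09, SE 0.43), which encode the chains of the iC3b receptor CR4, and C3ar1, the receptor of the C3a fragment (-0.93, SE 0.37), had the lowest p-values, with edgeR adjusted p from 0.328 to 0.389; without control 4 they were at -0.58, -0.58 and -0.46. Cr2, the receptor of C3d on B cells, was at 0.66 (SE 0.36). Fluid-phase regulators had 6 tested genes of 12, a median of -0.87 and 0 called by either tool. Clu, which encodes clusterin, a blocker of the terminal complex, stood at 875.9 ± 498.4 (SD, n = 6) with Arf6Q67L and 1594 ± 356.9 CPM without it (SD, n = 4), and 5 of 6 Arf6Q67L tumours were below every control (-0.86, SE 0.41, edgeR adjusted p = 0.456). Cfd, factor D, which cuts factor B and is abundant in fat, was at -2.21 (SE 1.06), but at -0.08 without control 4 and at 0.24 in limma-voom. Susd4 (-1.20, SE 0.86) and Cfi, factor I (-0.87, SE 0.82), followed, and Susd4 took the other sign without control 2 (0.14).

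Membrane regulators, which protect a cell from its own complement, had 6 tested genes of 7, all with positive values at a median of 0.62, and 0 were called by either tool. Cd59a, an inhibitor of the membrane attack complex, was above every control in 5 of 6 Arf6Q67L tumours (0.81, SE 0.40, edgeR adjusted p = 0.464). Cd55, the decay-accelerating factor, was at 0.65 (SE 0.58), Cd59b at 0.70 (SE 0.63) and Csmd1 at 0.59 (SE 0.94), the last of these at -0.50 without Arf6Q67L tumour 2. Cr1l, which encodes the mouse regulator Crry, had the highest level of this list, 71.2 ± 8.14 (SD, n = 6) with Arf6Q67L and 69.4 ± 6.84 CPM without it (SD, n = 4).

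**Figure D3:**
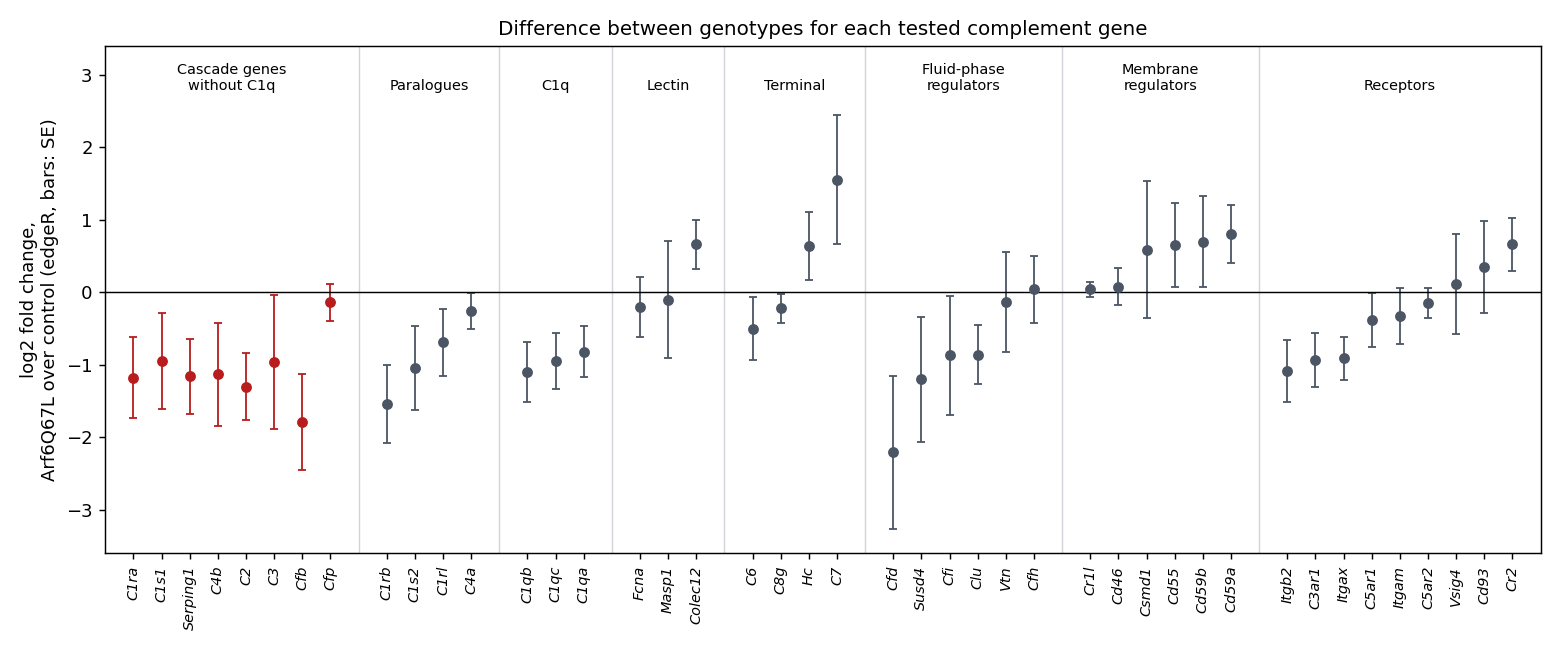
edgeR log2 fold change of Arf6Q67L over control for each tested complement gene by role, with bars of 1 SE; 0 means no difference. The 8 cascade genes lie between -1.79 and -0.14, the membrane regulators are the list with only positive values, and no gene shown passed the threshold after adjustment.

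Genes known to induce complement transcription were negative in 15 of 17 cases at a median of -0.67, with 5 of 17 at an unadjusted p under 0.05, all on the lower side. In edgeR 0 passed and in DESeq2 2 did, Stat2 and, just under the threshold, Irf1 (adjusted p = 0.0499). Over all genes, 7.05% had an unadjusted edgeR p under 0.05 on the lower side. DESeq2 called 1.39% of all genes lower, and 1.28% lay lower in every Arf6Q67L tumour than in any control. Stat2 stood at 70.9 ± 20.3 (SD, n = 6) with Arf6Q67L and 170.3 ± 32.4 CPM without it (SD, n = 4), and was below every control in 6 of 6. Its log2 fold change was -1.26 (SE 0.21), with adjusted p-values of 0.199 from edgeR and 9.16e-05 from DESeq2. Irf1 (-1.6, SE 0.49) and Irf9 (-0.70, SE 0.20) followed, each below every control in 5 of 6 and with edgeR adjusted p of 0.299 and 0.283. The cytokine gene Tnf was at -1.53 (SE 0.57, edgeR adjusted p = 0.365), and at -0.59 without control 4.

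Markers of cell types that could supply complement RNA were summed per tumour. For hepatocytes 7 of 8 listed markers were used here, because the listed symbol Tf matched no row. Their sum was 0.286 to 1.30 CPM in Arf6Q67L tumours and 0.503 to 2.16 CPM in controls. Ttr and Serpina1a were at 0 in every library, and Alb did not exceed 0.101 CPM. The list was low but not all at or near 0: Ahsg reached 1.85 CPM in control 1 and Fgb 1.075 CPM in Arf6Q67L tumour 2. The 10 macrophage markers, 7 of them negative, summed to 726.6 to 1769 CPM against 1046.0 to 2066 CPM, and DESeq2 called 1 of them, Mertk, as higher. At an unadjusted edgeR p under 0.05, 3 were lower (Adgre1, Cd68 and Fcgr1), against 7.05% of all genes. On the higher side were 2 (Mertk and Cd163), against 4.65%. Mrc1, the marker with the highest mean in Arf6Q67L tumours (496.0 against 326.1 CPM), was at 0.60 (SE 0.46), so the sum blends opposite directions. The 10 fibroblast markers, 5 negative and 5 positive, summed to 4801 to 8357 CPM against 4291 to 8147 CPM. Control 4, highest for 7 of the 8 complement genes, was the lowest tumour for this sum. Of the 10 markers only Col3a1 (1647 CPM) and Pdgfra (352.7 CPM) were themselves lowest in control 4. Col3a1 had the highest mean level of the list in both groups. T cell markers were negative in 8 of 8 and were highest in the 3 tumours with the highest complement sums: they summed to 377.7 CPM in control 4, 282.9 CPM in control 2 and 105.4 CPM in Arf6Q67L tumour 4, and to between 25.3 and 91.8 CPM in the other tumours. Adipocyte markers were negative in 5 of 5 tested and summed to 5.63 to 73.2 CPM against 14.2 to 187.7 CPM, highest in control 4. B cell markers, negative in 2 of 2 tested, were highest in the same 3 tumours as the T cell markers, at 34.0, 19.7 and 15.5 CPM, and skeletal muscle markers summed to 1129.9 CPM in control 4 against 3.63 to 33.8 CPM in the other controls and 14.6 to 745.4 CPM in Arf6Q67L tumours. Neutrophil markers, negative in 5 of 6 tested, summed to 16.1 to 109.7 CPM against 46.1 to 263.4 CPM. Endothelial markers, negative in 7 of 8, summed to 94.4 to 280.3 CPM against 151.3 to 338.7 CPM. DESeq2 called 1 neutrophil marker (Csf3r), 2 endothelial markers (Pecam1 and Emcn) and 1 B cell marker (Cd22) as lower, and edgeR called none of them (adjusted p from 0.239 to 0.283). Mast cell markers were positive in 8 of 8, of which DESeq2 called 5 and edgeR 0. They summed to 60.55 to 1050.3 CPM against 18.9 to 98.3 CPM, highest in Arf6Q67L tumour 6, the lowest for the complement sum. Over all genes, DESeq2 called 1.39% lower and 0.931% higher. At an unadjusted edgeR p under 0.05, 5 of 8 T cell, 4 of 8 endothelial, 3 of 5 adipocyte, 1 of 6 neutrophil and 1 of 2 B cell markers were lower. For fibroblasts this was 0 of 10. On the higher side were 7 of 8 mast cell markers. The part of any of these cell types in the complement values was not tested.

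**Figure D4:**
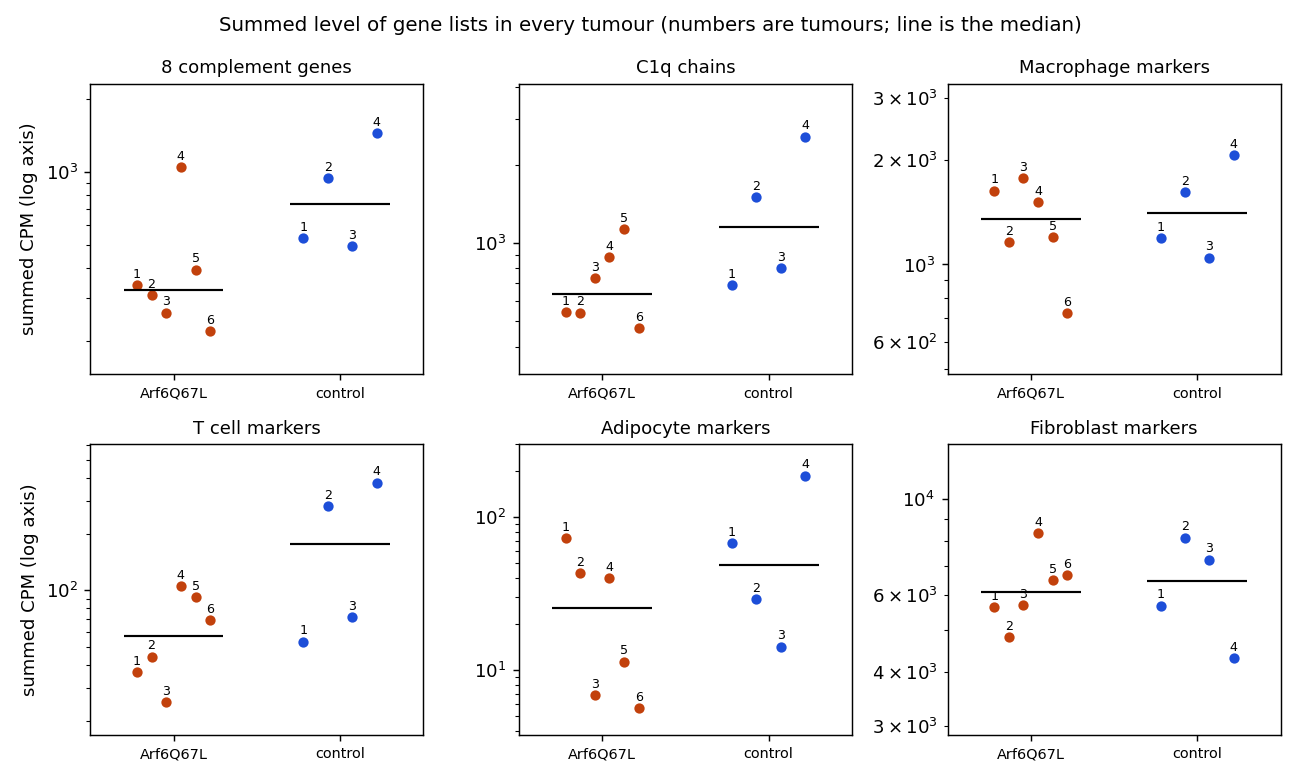
Summed CPM, on a log axis, of the 8 complement genes, the C1q chains and 4 marker lists in each tumour; numbers are tumours within a group and lines are group medians. Control 4, control 2 and Arf6Q67L tumour 4 are the 3 highest tumours for both the complement genes and the T cell markers.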

How the data were processed

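The data were raw counts per Ensembl gene, as deposited by the authors, for 10 tumour libraries made with a stranded kit that selects polyadenylated RNA, per the labels' protocols. The submitters' processing notes list GRCm38 as the build and, with no role for each, the tools DESeq2 1.18.0, featureCounts 1.5.1 and STAR 2.5.2b. No source used here states the strand setting or how reads in several genes or places were treated. Symbols, positions and exon lengths came from GENCODE M21 on GRCm38. Each column matched 1 sample's label, groups follow the label of genotype, and tumour numbers are accession order. No pair of tumours in a group was alike within counting noise (lowest chi-square divided by genes, 78.5).

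The test was edgeR's (version 4.0.16, R 4.3.3): TMM factors and a robust quasi-likelihood fit to genes kept by filterByExpr at its minimum count of 10, with Benjamini-Hochberg adjustment over 17286 genes. Log2 fold changes are Arf6Q67L over control, and SE is the fold change over the root of F. CPM used TMM-scaled totals, and log2 CPM a prior count of 2. Correlations used 100000 permutations, or all of them below 10 tumours. The fit was tested on simulated data. Alternatives were DESeq2 1.42.0, RLE factors, no low-count filter, limma-voom (limma 3.58.1) with quality weights, each tumour left out, and, chosen after seeing the data, counts pooled with paralogues or Gm20547. The genes and lists were chosen with earlier results of these data known, and 1 gene of the inducer list is not reported here and is left out of its counts. The text names the 8 genes, their paralogues, the C1q chains, up to 4 genes of lowest p in each other complement or inducer list, and the 3 genes most like each of the 8. Cr1l and the marker genes named in the text, those that DESeq2 called included, were chosen after their values were seen.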

Additional observations from a re-analysis of the deposited data

Results flagged for a closer look

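In 12 of 76 groups (38 genes in either genotype) the highest tumour stood apart from its group by Dixon's criterion on CPM without logs. Normally distributed values meet it in about 1 of 20 groups. CPM was not shown to be so distributed, and every flag was on the high side, so that rate cannot be applied here. The groups also share tumours, so the flags are not independent. Arf6Q67L tumour 4 was the tumour in 7 of them. It stood at 49.98 CPM for C1ra (next highest 16.2), 72.5 CPM for C1s1 (26.6), 300.9 CPM for C3 (61.6) and 173.4 CPM for C4b (68.1), and likewise at 2.16 CPM for C1rb, 7.21 CPM for C1s2 and 1.28 CPM for Cfi. Among the other Arf6Q67L tumours, tumour 1 stood apart for C7 (2.95 CPM), tumour 2 for Csmd1 (4.00 CPM) and tumour 3 for Hc (4.12 CPM). Control 4 stood apart from the other controls for Cfd (51.7 CPM against 7.77 CPM for the next) and for Stat2 (218.6 CPM against 159.0 CPM).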

How the results depend on the processing

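Under 14 alternatives, and for 5 of the genes a pooled count, the log2 fold changes of the 8 genes kept their sign and their side of the threshold in 116 of 117 values, the exception being Cfp without control 4 (-0.29 to 0.02 over the tumours left out), and the lowest adjusted p was 0.122 (C2 in DESeq2). None of the 8 was called under any alternative, pooling with a paralogue included; pooling C2 and Cfb with Gm20547, at 0 counts in every library, could not change a value. Over all genes, DESeq2 called 161 higher and 240 lower and limma-voom 1 and 1, against 0 and 0 in edgeR, where 2023 genes had an unadjusted p under 0.05 (804 higher, 1219 lower); leaving out single tumours gave 0 to 1 higher (1 without control 1) and 0 lower. With single tumours left out, the median over the 8 genes was -1.68 to -0.65. The correlation of C2 and Cfb was 0.68 in the 6 Arf6Q67L tumours alone (exact permutation p = 0.142), where fewer tumours enter. Other genes that took the opposite sign were Masp1 in limma-voom (0.54) and over the tumours left out (-0.48 to 0.65), Cfd in limma-voom (0.24), Susd4 over the tumours left out (-1.57 to 0.14) and Csmd1 likewise (-0.50 to 0.98); the cause was not tested. Stat2 and Irf1 passed in DESeq2 only, Irf1 at an adjusted p of 0.0499. No paired analysis was possible because tumours are numbered in accession order, which pairs none of them. At 6 counts in its lowest library, Cfb rests on few reads. Whether depth or the assignment of reads in shared exons keeps that number low was not tested.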

Other observations

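Several genes of the lectin and terminal pathways had too few counts to be tested. Of 9 lectin pathway genes 3 were tested, with a median log2 fold change of -0.10 and 0 called by edgeR or DESeq2, and the mannose-binding lectin genes Mbl1 and Mbl2 had no count in any library. Colec12, a scavenger collectin, stood at 152.4 ± 59.8 (SD, n = 6) with Arf6Q67L and 96.3 ± 35.4 CPM without it (SD, n = 4), with 4 of 6 Arf6Q67L tumours above every control (0.66, SE 0.34, edgeR adjusted p = 0.481). Fcna, which encodes ficolin A, was at -0.20 (SE 0.41) and the protease gene Masp1 at -0.10 (SE 0.81). Of 7 genes of the membrane attack complex 4 were tested, 2 of them positive, at a median of 0.21 and with 0 called by either tool. C6 stood at 18.1 ± 9.53 (SD, n = 6) with Arf6Q67L and 25.5 ± 5.62 CPM without it (SD, n = 4). Hc, which encodes C5, stood at 1.67 ± 1.24 (SD, n = 6) and 1.07 ± 0.277 CPM (SD, n = 4) in the same order, a log2 fold change of 0.64 that was 0.16 without Arf6Q67L tumour 3. C7 (1.55, SE 0.89) and C8g (-0.22, SE 0.20) had edgeR adjusted p-values of 0.531 and 0.700. C7 rested on Arf6Q67L tumour 1 (2.95 CPM, against a group median of 0.305 CPM): it was at 0.59 in limma-voom and did not pass the low-count filter without Arf6Q67L tumour 1, 4 or 6. C9 had no count in any library.

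The antisense gene Gm16567, whose 576 exonic bases all lie within exons of C1s1 on the other strand, was listed at 0 in every library, as was Gm20547. C1rl, a further relative of C1ra that shares none of its 50-base runs, was at -0.69 (SE 0.46, edgeR adjusted p = 0.593).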
